A study of Mus musculus with 12 samples.

Results

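The genes described here encode 10 antioxidant enzymes of mouse myocardium: the superoxide dismutases Sod1, Sod2 and Sod3, catalase (Cat), the glutathione peroxidases Gpx1, Gpx3 and Gpx4, the glutathione-synthesis enzyme Gclc, thioredoxin reductase Txnrd1 and heme oxygenase Hmox1. They were taken by gene symbol from the platform annotation, and all 10 were measured among 19505 genes, each by 1 probe set. RNA of heart muscle from 12 mice was hybridised to 1 array per mouse, in 3 groups of 4. DM_AngIV mice were diabetic and received angiotensin IV, a hexapeptide derived from angiotensin II, by infusion at 2.88 mg/kg/day from the end of week 8 to the end of week 24. DM mice had no angiotensin IV. Diabetes in both groups came from streptozotocin, which kills pancreatic beta cells, injected into the peritoneum on 5 consecutive days, and mice entered when fasting glucose reached at least 16.7 mM 2 weeks later. NC mice were nondiabetic controls that had vehicle injections on 5 days. All samples carried the label 6 months, whose starting point is not given in the sources used here, nor are the strain and sex of the mice. The 3 groups hold no nondiabetic mice with angiotensin IV, so its effect could be read only against a diabetic background.

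Superoxide leaks from mitochondrial respiration and is made by NADPH oxidases. Sod1 in the cytosol, Sod2 in the mitochondrial matrix and the secreted Sod3 convert it to hydrogen peroxide. Peroxide is then removed by catalase, mainly in peroxisomes, by glutathione peroxidases, which spend glutathione, and by peroxiredoxins, which draw electrons from thioredoxin. Glutathione is made from cysteine by way of Gclc, the catalytic subunit of glutamate-cysteine ligase, and oxidised thioredoxin is restored by Txnrd1. The transcription factor NRF2 induces Gclc, Txnrd1, Hmox1 and other members of this system through antioxidant response elements, and FoxO transcription factors are known regulators of Cat and Sod2. Excess reactive oxygen species are a long-studied feature of the diabetic heart.

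Promoter windows of 250 bases before the annotated start were read from RefSeq on GRCm38.p6, the build of that table. Of the 10 members, 7 had windows, 12 in all, and Sod3, Hmox1 and Gclc were not searched. The windows of Cat and Gpx1 are shown because these members had the smallest p-values among those with a window. The second of the 3 windows of Txnrd1 is shown because it holds letters of an antioxidant response element. Each runs 5′ to 3′ on the gene's own strand and ends 1 base before the start, at chr2:103485154-103485403 on the minus strand for Cat, chr9:108338830-108339079 on the plus strand for Gpx1 and chr10:82858956-82859205 on the plus strand for Txnrd1. Capitals mark matches, on either strand, to the motifs listed after the sequences.
Cat: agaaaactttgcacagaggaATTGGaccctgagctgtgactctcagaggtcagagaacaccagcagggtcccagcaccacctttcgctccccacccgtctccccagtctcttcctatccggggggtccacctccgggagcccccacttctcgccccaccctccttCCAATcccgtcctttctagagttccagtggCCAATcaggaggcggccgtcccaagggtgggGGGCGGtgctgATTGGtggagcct
Gpx1: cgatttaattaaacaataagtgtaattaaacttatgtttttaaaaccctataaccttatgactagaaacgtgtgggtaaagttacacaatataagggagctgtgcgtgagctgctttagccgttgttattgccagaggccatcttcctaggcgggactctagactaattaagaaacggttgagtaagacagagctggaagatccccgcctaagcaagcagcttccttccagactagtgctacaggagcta
Txnrd1: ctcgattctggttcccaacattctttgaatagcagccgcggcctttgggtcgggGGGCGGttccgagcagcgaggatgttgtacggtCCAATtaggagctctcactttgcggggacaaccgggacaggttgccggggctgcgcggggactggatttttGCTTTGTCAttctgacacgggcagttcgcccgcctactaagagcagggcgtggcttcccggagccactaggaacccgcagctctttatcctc

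The motifs searched on both strands were TGACNNNGC, the core letters of the antioxidant response element, GTAAACA, a FoxO core, CCAAT, the CCAAT box, and GGGCGG, the GC box. Matches could overlap, and those printed here do not. Among 32851 windows of all genes, 10.2% held the first, 3.17% the FoxO core, 33.8% the CCAAT box and 32.7% the GC box. Cat held 4 CCAAT boxes and 1 GC box. Gpx1 held none of the 4 motifs in its window. Txnrd1 held 1 match to the antioxidant response element, from 92 to 84 bases before its second start, and Sod1 held the other match among the 7 members searched, from 56 to 48 bases before its start. No window searched for a member held GTAAACA. These matches describe the letters only.

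All 10 members were above background on every array, where background was taken as 4.96 on the log2 scale of the deposited expression values, a level that 95% of the reporter control probe values did not exceed. The arrays had like distributions, with medians between 4.12 and 4.19, and pairs of arrays correlated at 0.977 to 0.990 over genes. The tissue label was checked against 10 markers of ventricular and common cardiomyocytes, which were all above background on every array. Myl7, the atrial myosin light chain, stood above background on 5 arrays, with values of 8.86, 9.68 and 8.10 in DM replicates 1, 2 and 4 and 10.08 and 7.90 in NC replicates 1 and 3. It lay between 3.53 and 4.28 on the other 7 arrays, including all 4 DM_AngIV arrays. The mean of all 6 atrial cardiomyocyte markers ran from 5.22 to 5.65 in DM_AngIV, from 5.00 to 7.92 in DM and from 5.47 to 8.31 in NC hearts. Results were therefore also computed without those 5 arrays, which leaves all 4 DM_AngIV, 1 DM and 2 NC arrays. Markers of neutrophils (6 measured) and lymphocytes (5 measured) held no gene above background on every array of a group, and of 4 measured erythroid markers 2 did. In whole tissue, fewer cells of a type and less RNA per cell cannot be told apart, for any of the values that follow.

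No antioxidant enzyme passed the adjusted threshold of 0.05 in any comparison of limma's moderated test over all genes, nor in the test of any difference among the 3 groups. The members that came nearest were Gpx1, lower in DM_AngIV hearts, and Cat and Hmox1, with higher group means in diabetic hearts with and without angiotensin IV. For Hmox1, DM replicates 3 and 4 lay within the NC range. Among the 10 members, 1 had an unadjusted p below 0.05 in DM_AngIV against DM, where 7.48% of all genes did and 0% passed the adjusted threshold. In DM against NC 2 members did, against 8.95% of all genes, and 0.0154% of genes passed after adjustment. In DM_AngIV against NC 3 members did, against 14.6% of all genes, and 1.02% of genes passed after adjustment. Across the 3 groups 3 members had an unadjusted p below 0.05, against 12.2% of all genes, and 0.385% of genes passed after adjustment. The p-values set each difference between groups against the spread between mice, pooled over the 3 groups and moderated by limma with that of all genes. The 3 comparisons share arrays.

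As a set the members had no common direction. Their median log2 fold change was -0.051 in DM_AngIV against DM, with 4 of 10 above 0, where the median of all genes was -0.00071. It was 0.070 in DM against NC, with 7 of 10 above 0, beside -0.0010 for all genes. In DM_AngIV against NC it was -0.014, with 5 of 10 above 0, beside -0.0070 for all genes. Groups did not overlap for 1 member in DM_AngIV against DM (5.01% of all genes), for 0 members in DM against NC (4.54% of all genes) and for 2 members in DM_AngIV against NC (9.83% of all genes).

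**Figure D1:**
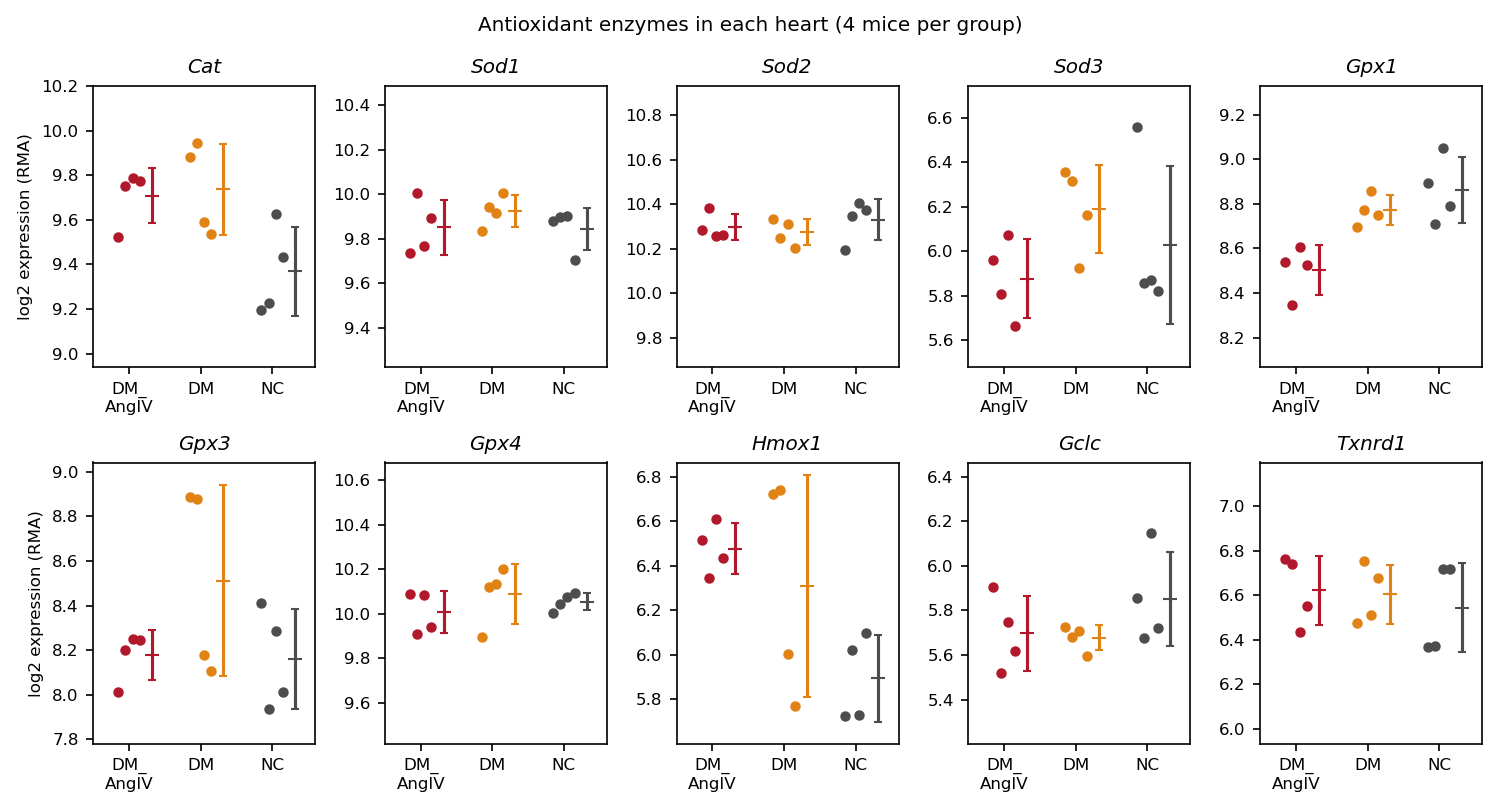
Log2 expression of the 10 antioxidant enzymes on each array, 4 mice per group, with DM_AngIV at the left, then DM and NC. Points are mice, horizontal ticks are means and bars are 1 SD. Each panel has its own range of levels, over the same span. Gpx1 in DM_AngIV lies below every DM and NC heart. Hmox1 and Gpx3 in DM split into the same 2 high hearts, replicates 1 and 2, and 2 low hearts, replicates 3 and 4. Cat in DM is also highest in replicates 1 and 2.

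The superoxide dismutases of the cytosol and mitochondria were among the steadiest genes of the array. Sod1 had log2 values of 9.74, 10.01, 9.77 and 9.89 in DM_AngIV hearts, 9.83, 9.94, 9.91 and 10.01 in DM hearts and 9.88, 9.90, 9.90 and 9.70 in NC hearts. The 3 groups overlapped throughout. Its log2 fold change was -0.073 ± 0.10 (SE) in DM_AngIV against DM, with a 95% interval of -0.28 to 0.14, 0.079 in DM against NC, with an interval of -0.13 to 0.29, and 0.0062 in DM_AngIV against NC, with an interval of -0.21 to 0.22.

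Sod2 had 10.28, 10.38, 10.26 and 10.26 in DM_AngIV hearts, 10.33, 10.25, 10.31 and 10.20 in DM hearts and 10.20, 10.35, 10.40 and 10.37 in NC hearts. All 12 values lay within a 1.15-fold range. Its residual SD within groups, 0.072, stood at percentile 0.882 of all genes, and that of Sod1, 0.099, at percentile 4.76, where the median gene had 0.192. The intervals for Sod2 ran from -0.18 to 0.22 in DM_AngIV against DM, from -0.25 to 0.14 in DM against NC and from -0.23 to 0.16 in DM_AngIV against NC.

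Sod3, the extracellular dismutase that binds heparan sulfate, varied more. It had 5.96, 5.81, 6.07 and 5.66 in DM_AngIV hearts, 6.36, 6.32, 5.92 and 6.17 in DM hearts and 6.56, 5.86, 5.87 and 5.82 in NC hearts. DM replicates 1, 2 and 4 exceeded every DM_AngIV heart, while DM replicate 3 lay within the DM_AngIV range, and NC replicate 1 stood above all other hearts. The log2 fold change was -0.31 ± 0.16 (SE) in DM_AngIV against DM (limma adjusted p = 0.682), 0.16 ± 0.16 in DM against NC (adjusted p = 0.827) and -0.15 ± 0.16 in DM_AngIV against NC (adjusted p = 0.736). The 3 high DM hearts and NC replicate 1 are 4 of the 5 arrays with Myl7 signal. The remaining array, NC replicate 3, had Sod3 at 5.87, close to NC replicates 2 and 4, which had no Myl7 signal. Without the 5 arrays with Myl7 signal the value in DM_AngIV against DM was -0.046, from a single DM heart, replicate 3, the lowest of its group. With the atrial marker mean as covariate it was -0.054. NC replicate 1 also had a smooth muscle and pericyte marker mean of 7.16 over 8 genes, against 5.82 to 6.45 in the other NC hearts. That mean ran from 6.27 to 6.62 in DM_AngIV hearts, where Sod3 was lower, and from 5.83 to 6.32 in DM hearts, where Sod3 was higher. The mean of 7 fibroblast markers, all above background on every array, ran from 6.60 to 7.09 in DM_AngIV, from 6.99 to 7.22 in DM and from 6.92 to 7.59 in NC hearts, with NC replicate 1 the highest. The part of smooth muscle, pericytes and fibroblasts in the Sod3 values was not tested.

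Catalase removes hydrogen peroxide without a reducing partner such as glutathione. Cat had 9.52, 9.75, 9.79 and 9.78 in DM_AngIV hearts, 9.88, 9.94, 9.59 and 9.54 in DM hearts and 9.20, 9.23, 9.62 and 9.43 in NC hearts. NC replicate 3 lay within the range of both diabetic groups, and the other 3 NC hearts lay below all 8 diabetic hearts. Cat was 1.29-fold higher in DM than in NC hearts, with means of 9.74 ± 0.21 and 9.37 ± 0.20 (SD, n = 4 each). The log2 fold change was 0.37 ± 0.13 (SE), with a 95% interval of 0.094 to 0.64 and a limma p of 0.0119 before and 0.401 after adjustment. In DM_AngIV hearts, with a mean of 9.71 ± 0.12, it was 1.27-fold higher than in NC (log2 fold change 0.34 ± 0.13, limma adjusted p = 0.233). The value in DM_AngIV against DM was -0.028 ± 0.13, with an interval of -0.30 to 0.25. Without the 5 arrays with Myl7 signal it was 0.12, from a single DM heart, replicate 3. Over 22 alternatives the value in DM against NC ran from 0.26 to 0.45. The lowest, 0.26, was without those 5 arrays and rests on the same single DM heart. The 2 highest DM hearts, replicates 1 and 2, had Myl7 signal. So had replicate 4, which with replicate 3 made the 2 lowest.

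Glutathione peroxidase 1, a selenoenzyme of the cytosol and mitochondria, was the member whose DM_AngIV hearts lay apart from both other groups. Gpx1 had 8.54, 8.35, 8.61 and 8.53 in DM_AngIV hearts, 8.70, 8.77, 8.86 and 8.75 in DM hearts and 8.90, 8.71, 9.05 and 8.79 in NC hearts. Every DM_AngIV heart lay below every DM and every NC heart, while DM and NC hearts overlapped. The means were 8.50 ± 0.11 in DM_AngIV, 8.77 ± 0.067 in DM and 8.86 ± 0.15 in NC hearts (SD, n = 4 each).

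Gpx1 was 1.20-fold lower in DM_AngIV than in DM hearts, with a log2 fold change of -0.27 ± 0.10 (SE), a 95% interval of -0.49 to -0.046 and a limma p of 0.0211 before and 0.620 after adjustment. Against NC it was 1.28-fold lower in DM_AngIV hearts, with a log2 fold change of -0.36 ± 0.10, an interval of -0.58 to -0.14 and a limma p of 0.00344 before and 0.114 after adjustment. The value in DM against NC was -0.092 ± 0.10 (limma adjusted p = 0.854). Gpx1 against NC passed the threshold when only genes above the median level were tested, at an adjusted p of 0.0415, and with limma's trended and robust prior, at 0.0264. It ranged from 0.0264 to 0.447 over 22 alternatives. Without the 5 arrays with Myl7 signal the log2 fold change against NC was -0.25, and the furthest from 0 among the alternatives was -0.41. The separation of DM_AngIV from DM kept its sign in all 22 alternatives, with values from -0.36 to -0.21, and was called in none. The value of -0.36 was without the 5 arrays with Myl7 signal. It rests on a single DM heart, replicate 3, the highest of its group.

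Gpx3, the secreted plasma glutathione peroxidase, was split within DM. It had 8.01, 8.20, 8.25 and 8.25 in DM_AngIV hearts, 8.89, 8.88, 8.18 and 8.11 in DM hearts and 8.41, 7.93, 8.29 and 8.01 in NC hearts. DM replicates 1 and 2 stood above all other hearts, while DM replicates 3 and 4 lay within the range of both other groups. The log2 fold change was -0.33 ± 0.18 (SE) in DM_AngIV against DM (limma adjusted p = 0.694), 0.35 ± 0.18 in DM against NC (adjusted p = 0.601) and 0.016 ± 0.18 in DM_AngIV against NC (adjusted p = 0.980). The 2 high DM hearts had Myl7 signal, as had DM replicate 4, which was low. Without the 5 arrays with Myl7 signal the value in DM_AngIV against DM was -0.0012, and in DM against NC it was 0.21. Both values rest on a single DM heart, replicate 3, which was low. With the atrial marker mean as covariate the value in DM_AngIV against DM was -0.042.

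Gpx4 reduces lipid hydroperoxides in membranes and is known for its part in blocking ferroptosis. It had 10.09, 9.91, 10.09 and 9.94 in DM_AngIV hearts, 9.89, 10.12, 10.13 and 10.20 in DM hearts and 10.01, 10.04, 10.08 and 10.09 in NC hearts. The groups overlapped, and all 12 values lay within a 1.24-fold range. The log2 fold change was -0.081 in DM_AngIV against DM, with a 95% interval of -0.29 to 0.13, 0.033 in DM against NC, with an interval of -0.18 to 0.24, and -0.047 in DM_AngIV against NC, with an interval of -0.26 to 0.16.

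Gclc sets the pace of glutathione synthesis. It had 5.91, 5.52, 5.75 and 5.62 in DM_AngIV hearts, 5.72, 5.68, 5.71 and 5.60 in DM hearts and 5.86, 5.68, 6.15 and 5.72 in NC hearts. NC replicate 3 was the highest of all, and the groups overlapped. The log2 fold change was 0.020 ± 0.12 (SE) in DM_AngIV against DM, with a 95% interval of -0.24 to 0.28, -0.17 ± 0.12 in DM against NC, with an interval of -0.43 to 0.083, and -0.15 ± 0.12 in DM_AngIV against NC, with an interval of -0.41 to 0.10.

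Txnrd1, the cytosolic thioredoxin reductase and a selenoenzyme, had 6.76, 6.74, 6.44 and 6.55 in DM_AngIV hearts, 6.48, 6.75, 6.51 and 6.68 in DM hearts and 6.37, 6.37, 6.72 and 6.72 in NC hearts. Each group held high and low hearts. The log2 fold change was 0.017 in DM_AngIV against DM, with a 95% interval of -0.24 to 0.28, 0.061 in DM against NC, with an interval of -0.20 to 0.32, and 0.079 in DM_AngIV against NC, with an interval of -0.18 to 0.34. No difference was larger than the spread between mice.

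Heme oxygenase 1, which splits heme into carbon monoxide, iron and biliverdin, had the widest range among the members. Hmox1 had 6.52, 6.35, 6.61 and 6.43 in DM_AngIV hearts, 6.72, 6.74, 6.00 and 5.77 in DM hearts and 5.72, 6.02, 5.73 and 6.10 in NC hearts. Every DM_AngIV heart lay above every NC heart. DM hearts fell on both sides, with replicates 1 and 2 above all other hearts and replicates 3 and 4 within the NC range.

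The mean of Hmox1 was 6.48 ± 0.11 in DM_AngIV, 6.31 ± 0.50 in DM and 5.89 ± 0.20 in NC hearts (SD, n = 4 each). It was 49.7% higher on the linear scale in DM_AngIV than in NC hearts, with a log2 fold change of 0.58 ± 0.19 (SE), a 95% interval of 0.18 to 0.99 and a limma p of 0.00790 before and 0.163 after adjustment. It passed when only the 8 arrays of these groups entered the fit, at an adjusted p of 0.0422, and ranged from 0.0422 to 0.311 over 22 alternatives. In DM against NC the value was 0.41 ± 0.19 (limma adjusted p = 0.542), and in DM_AngIV against DM 0.17 ± 0.19 (adjusted p = 0.865). Without the 5 arrays with Myl7 signal the value in DM against NC was -0.059, from a single DM heart, and against NC in DM_AngIV hearts it stayed above 0 in all 22 alternatives, the lowest value being 0.42.

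Macrophages that clear red cells are a known site of Hmox1 expression. The mean of 11 macrophage and monocyte markers was 6.18, 6.29, 6.13 and 5.69 in DM_AngIV hearts, 6.59, 6.00, 6.04 and 5.58 in DM hearts and 5.71, 5.56, 5.68 and 5.65 in NC hearts. All 11 had a positive log2 fold change in DM against NC and in DM_AngIV against NC, with medians of 0.33 and 0.32, and 0 passed the adjusted threshold in limma's test, with 4 at an unadjusted p below 0.05 in each. Of the 11 markers, 8 were above background on every DM_AngIV array, 7 on every DM array and 7 on every NC array. DM replicate 1 was high in both, with Hmox1 at 6.72 and a marker mean of 6.59, and DM replicate 4 was low in both, at 5.77 and 5.58. DM_AngIV replicate 4 had Hmox1 at 6.43 with a marker mean of 5.69, within the NC range. DM replicate 3 had Hmox1 at 6.00, within the NC range, with a marker mean of 6.04, above it. The part of these cells in the Hmox1 values was not tested.

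**Figure D2:**
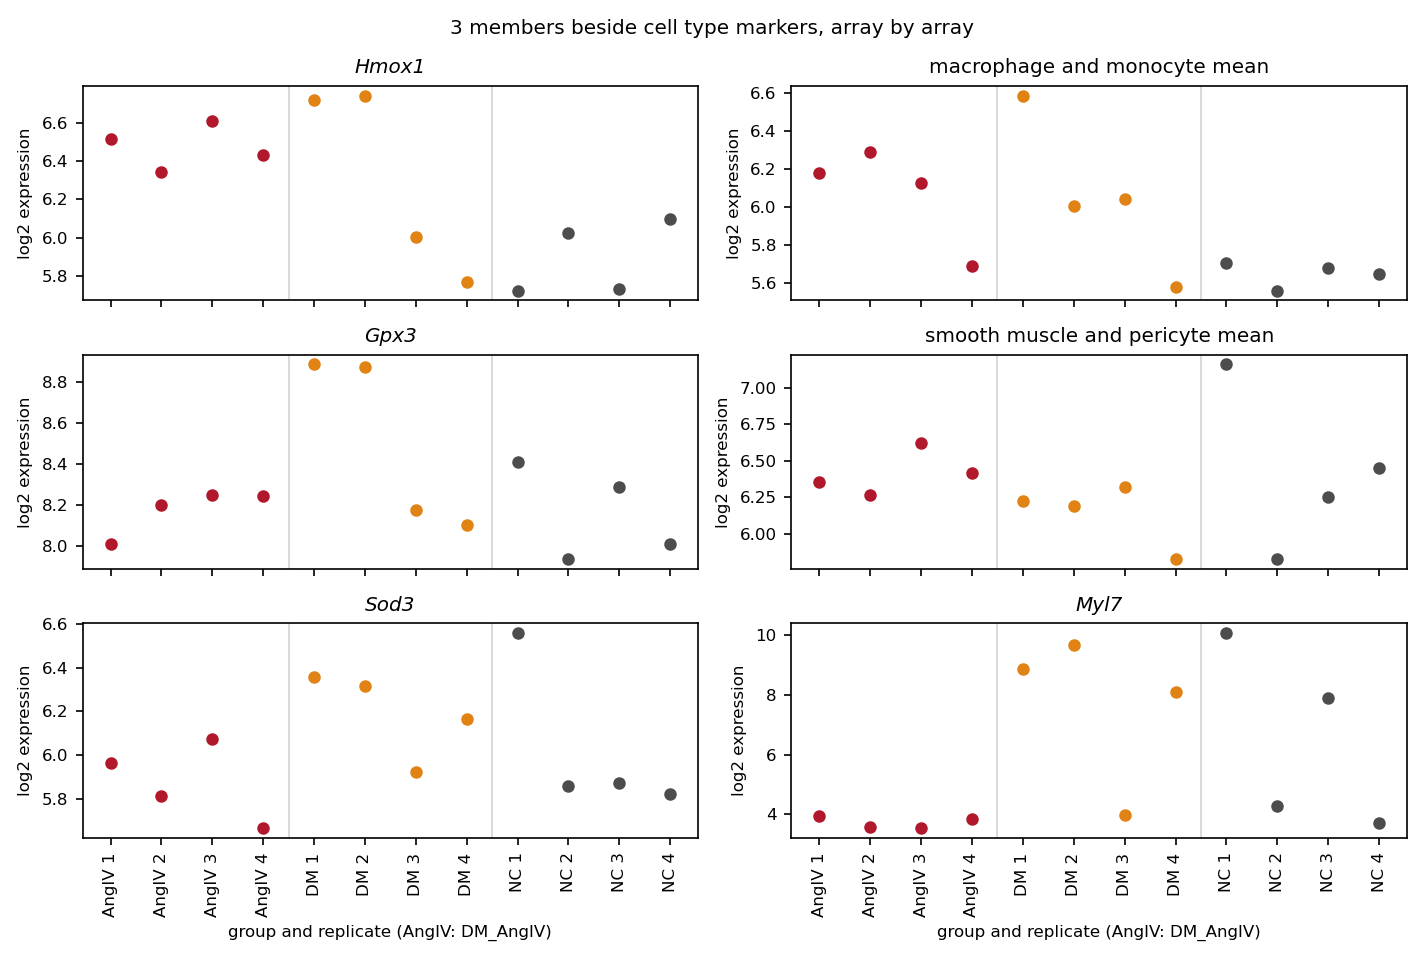
Hmox1, Gpx3 and Sod3 (left panels) on each array beside the mean of 11 macrophage and monocyte markers, the mean of 8 smooth muscle and pericyte markers and the atrial gene Myl7 (right panels), all in log2 expression. Points are mice, with DM_AngIV (written AngIV on the axis) first, then DM and NC. Myl7 is between 3.53 and 3.94 on all 4 DM_AngIV arrays and at 7.90 or above on 5 DM and NC arrays.

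**Figure D3:**
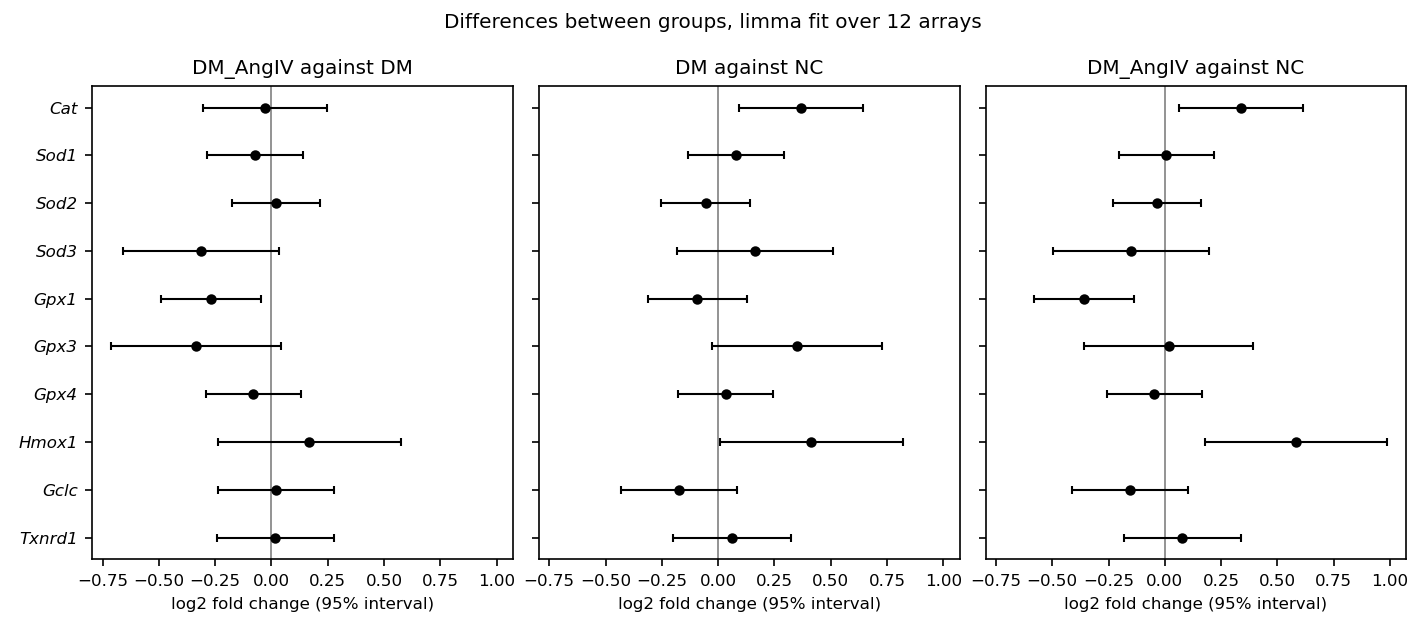
Log2 fold changes of the 10 enzymes in the 3 comparisons, from the limma fit over 12 arrays. Points are estimates and bars are 95% intervals, not adjusted for the number of genes. The interval of Gpx1 lies below 0 in both comparisons with DM_AngIV on top, and the intervals of Cat and Hmox1 lie above 0 in both comparisons against NC.

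Among the members, spread within groups divided the steady Sod2, Gpx4, Sod1 and Gpx1 from Hmox1, Gpx3 and Sod3. Residual SDs stood at percentile 0.882 of all genes for Sod2, 4.34 for Gpx4, 4.76 for Sod1 and 8.97 for Gpx1. They stood at percentile 92.4 for Hmox1, 87.7 for Gpx3 and 79.3 for Sod3, with Cat at 43.4, Txnrd1 at 34.0 and Gclc at 31.6. The percentiles were taken over all genes whatever their expression level, and the part of level in the spread was not tested.

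The 6 lists of other genes of the antioxidant system held 121 measured genes, of 136 symbols that include older synonyms. None passed in DM_AngIV against DM or in DM against NC with limma's test, where 18 (14.9%, against 7.48% of all genes) in the first and 22 (18.2%, against 8.95% of all genes) in the second had an unadjusted p below 0.05. In DM_AngIV against NC 4 passed, 3 higher and 1 lower, or 3.31% of the lists against 1.02% of all genes. There 41 (33.9%, against 14.6% of all genes) had an unadjusted p below 0.05. The lists were chosen with earlier results of these data known. On each array 38.9% to 45.6% of all genes stood above its own 95th percentile of reporter controls, a share not computed for the lists. The shares of the lists and of all genes are therefore given as description only. The median log2 fold change of the 121 genes was 0.054 in DM_AngIV against DM, 0.0017 in DM against NC and 0.044 in DM_AngIV against NC.

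Sesn1, a sestrin that limits mTORC1 signalling and is a known FoxO and p53 target, had the largest log2 fold change of the 4. It had log2 values of 9.27, 9.37, 9.47 and 9.83 in DM_AngIV hearts, 9.28, 9.20, 8.56 and 8.49 in DM hearts and 8.48, 8.22, 8.25 and 8.40 in NC hearts. Every diabetic heart, with or without angiotensin IV, exceeded every NC heart, though DM replicate 4 at 8.49 barely passed NC replicate 1 at 8.48. DM hearts divided into 2 high, replicates 1 and 2, and 2 low, the same division as for Hmox1 and Gpx3. Groups did not overlap for 4.54% of all genes in DM against NC and for 9.83% in DM_AngIV against NC. In DM against NC the log2 fold change of Sesn1 was 0.55, which was not called (limma adjusted p = 0.351). In DM_AngIV against DM it was 0.60, also not called (limma adjusted p = 0.513). Its log2 fold change in DM_AngIV against NC was 1.15 (limma adjusted p = 0.00834), and it passed in all 22 alternatives. It was the single called gene of 18 measured peroxiredoxins, thioredoxins and glutaredoxins with their partners. Txnip, which binds and inhibits thioredoxin, had the smallest p of that list in DM against NC (limma adjusted p = 0.308), with means of 10.85 in DM and 10.06 in NC hearts.

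Xdh, which makes uric acid and superoxide as xanthine oxidase, had 7.59, 7.64, 7.36 and 7.72 in DM_AngIV hearts, 7.94, 7.52, 6.84 and 6.90 in DM hearts and 6.88, 6.15, 6.42 and 6.33 in NC hearts. Every DM_AngIV heart exceeded every NC heart, and DM replicate 3 lay below NC replicate 1. The log2 fold change was 0.85 in DM against NC (limma adjusted p = 0.221) and 0.28 in DM_AngIV against DM (limma adjusted p = 0.784). Xdh was called in neither. It rose by 1.13 on the log2 scale in DM_AngIV against NC (limma adjusted p = 0.0207), as the single called gene of 19 oxidant sources. The call was lost without DM_AngIV replicate 2 (0.0583), DM_AngIV replicate 4 (0.0715), NC replicate 2 (0.0695) or NC replicate 4 (0.0589). In DM_AngIV against DM the smallest p of that list was that of Prodh, the mitochondrial proline dehydrogenase (adjusted p = 0.511), with means of 6.19 in DM_AngIV and 5.60 in DM hearts.

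Gstt2, a theta-class glutathione transferase, had 5.97, 5.84, 5.74 and 5.97 in DM_AngIV hearts, 6.10, 5.86, 5.59 and 5.10 in DM hearts and 5.06, 4.71, 4.94 and 5.16 in NC hearts, of which 2 were above background. All DM_AngIV hearts exceeded all NC hearts. The log2 fold change was 0.70 in DM against NC (limma adjusted p = 0.215) and 0.22 in DM_AngIV against DM (limma adjusted p = 0.801). Gstt2 was called in neither. It rose by 0.91 on the log2 scale in DM_AngIV against NC (limma adjusted p = 0.0215), as the single called gene of 30 in glutathione synthesis, recycling and conjugation. The call was lost without DM_AngIV replicate 2 (0.0531), DM_AngIV replicate 4 (0.0715), NC replicate 2 (0.0702) or the 5 arrays with Myl7 signal (0.0505), where the log2 fold change was 0.95. Gstt1, its neighbour in class, had the smallest p of the list in DM_AngIV against DM (adjusted p = 0.570) and Gstk1, the mitochondrial and peroxisomal kappa-class transferase, in DM against NC (adjusted p = 0.202).

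Taldo1, a transaldolase of the pentose phosphate pathway, was the single called gene of 12 in NADPH supply. It had 5.71, 5.88, 5.83 and 5.93 in DM_AngIV hearts, 6.07, 6.19, 6.20 and 6.00 in DM hearts and 6.18, 6.21, 6.48 and 6.36 in NC hearts. All DM_AngIV hearts lay below all DM and NC hearts. The log2 fold change was -0.27 in DM_AngIV against DM and -0.20 in DM against NC. Taldo1 was called in neither of these (limma adjusted p = 0.620 in both). It fell by 0.47 on the log2 scale in DM_AngIV against NC (limma adjusted p = 0.0425), a call lost when any 1 DM_AngIV or NC array, or DM replicate 2 or 3, was left out. The adjusted p also missed the threshold in a fit of the 8 arrays compared (0.0612), with centring on array medians (0.0545), with the atrial marker mean as covariate (0.0678) and without the 5 arrays with Myl7 signal (0.206). Its fold change on the log2 scale was -0.49 with that covariate and -0.45 without those arrays.

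The list of NRF2 regulators and other NRF2 targets, of 24 measured genes, had no call in the fit over all genes and arrays. Its smallest adjusted p in DM_AngIV against NC was 0.0662, for Ephx1, the microsomal epoxide hydrolase, with means of 7.17 in DM_AngIV and 6.52 in NC hearts. Ephx1 passed when only genes above the median level were tested (0.0303), with the trended and robust prior (0.0174) and with the atrial marker mean as covariate (0.0360). In DM_AngIV against DM it was Ces1d, a carboxylesterase (adjusted p = 0.676), and in DM against NC Osgin1 (adjusted p = 0.398), which was not above background in either group. Of the 18 superoxide and selenium helpers none was called in that fit either. The smallest p belonged to Selenbp1, a selenium-binding protein, in DM_AngIV against DM (adjusted p = 0.600), and to Eefsec, the elongation factor for selenocysteine, in DM against NC (adjusted p = 0.539) and in DM_AngIV against NC (adjusted p = 0.0722). Eefsec was above background on 2 NC arrays and on no diabetic array. In DM_AngIV against NC it passed when only genes above the median level were tested (0.0305), with the trended and robust prior (0.0419) and without DM_AngIV replicate 1 (0.0435).

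**Figure D4:**
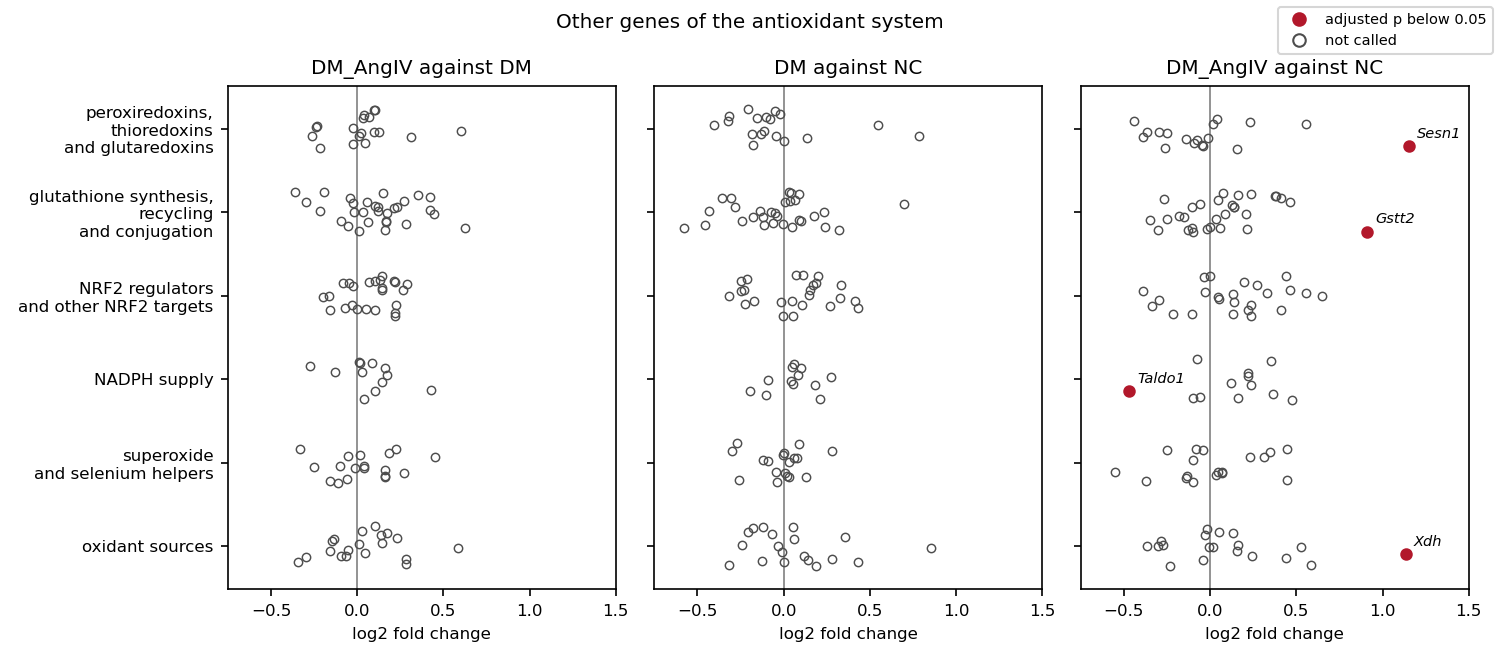
Log2 fold changes of the 121 other genes of the antioxidant system, 1 point per gene, by list (vertical axis) and comparison (panels). Filled points have an adjusted p below 0.05. The 4 filled points, Sesn1, Gstt2 and Xdh at the right and Taldo1 at the left, are all in DM_AngIV against NC.

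For each member, the genes most alike over the 12 arrays were sought among 8168 genes above background, by Pearson correlation of log2 values. The arrays share groups, tissue make-up and scaling, so these values describe likeness only. Each was also picked as the highest or next highest of 8168 over 12 arrays, a search that returns high values by itself. Cat was most like Retsat (0.968), which saturates retinol, and Saraf (0.962), a regulator of calcium entry. Gpx3 was most like Serpina3n (0.956), a secreted protease inhibitor, and Cd200r2 (0.904). Hmox1 followed Map1lc3b (0.924), the autophagosome protein LC3B, and Rpl3 (0.923), a ribosomal protein. Gpx1 followed Derl1 (0.906) and Ssr4 (0.893), both of the endoplasmic reticulum. With group means taken out, these fell to 0.725 and 0.779, the lowest such values among the pairs named here. Sod3 was most like Mfap5 (0.896), a microfibril protein, and Crip1 (0.873). The highest values were 0.919 for Sod2 with Atg4b, 0.912 for Gpx4 with Ier3ip1, 0.891 for Sod1 with Vps4b, 0.877 for Gclc with Ddx10 and 0.868 for Txnrd1 with Ube2l3.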

How the data were processed

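The authors deposited log2 expression values, made by robust multi-array average (RMA) per the submitters' processing notes, whose software version is not given in the sources used here. RMA sets the arrays to a common distribution, so changes shared by most genes cannot be seen. Of 29129 probe sets, 19572 had a gene symbol in the platform annotation. The probe set with the highest mean represented each of 19505 genes. Precision is limited by the number of arrays, which have no depth. A mean per group was fitted over 12 arrays with limma 3.58.1 (R 4.3.3, lmFit and eBayes), with two-sided moderated tests and Benjamini-Hochberg adjustment over all genes at 0.05. The code was tested on simulated data. Figures were drawn with matplotlib 3.10.9. Background was the 95th percentile of 246 reporter control probe sets. The members and lists were chosen with earlier results of these data known. All members were named, with every called gene and the smallest-p gene of each list and comparison, and the 2 genes most alike to each member. The sample labels give no pairing of mice by replicate number, and the values showed none clearly. Of 12 same-number correlations between groups, from -0.098 to 0.171, 1 was over 0.1. Low correlations cannot show that mice were unpaired. Alternatives covered the arrays used, a replicate block, level filter, scaling, weights, prior, probe sets, atrial signal and leaving out each array.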

Additional observations from a re-analysis of the deposited data

Results flagged for a closer look

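Among 30 groups of 4 values, 3 held a heart whose gap to the nearest other heart was a larger part of the group's range than Dixon's critical value of 0.829. Chance gives this in about 1 in 20 groups. Cat in DM_AngIV replicate 1 was 9.52 on the log2 scale, below the other DM_AngIV hearts at 9.75 to 9.79. Sod1 in NC replicate 4 was 9.70, below the other NC hearts at 9.88 to 9.90. Sod3 in NC replicate 1 was 6.56, above the other NC hearts at 5.82 to 5.87.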

How the results depend on the processing

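Members called in DM_AngIV against NC numbered 0, and 1 with only the 8 arrays compared, with genes above the median level only and with the trended, robust prior. They numbered 0 in every other alternative and comparison. Genes called in DM_AngIV against NC numbered 198, and 504 above the median level, 514 with the trended prior, 50 without the 5 arrays with Myl7 signal and 81 to 302 with 1 array left out. In DM against NC they numbered 3, and 20, 28 and 0 under the same 3 settings, 5 with the atrial marker mean as covariate and 2 to 30 with 1 array left out. Across the 3 groups they numbered 75, and 236, 277 and 17 under those settings and 14 to 134 with 1 array left out. In DM_AngIV against DM they numbered 0, and 0 to 5 with 1 array left out, with 5 without DM_AngIV replicate 2. With the replicate number as a block, 115 genes were called in DM_AngIV against NC and 19 across the 3 groups, and Taldo1 had an adjusted p of 0.0703 in DM_AngIV against NC, above the threshold of 0.05. Of 12 comparisons of an array with those of another group, 2 had their highest correlation at their own number.

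Several members changed sign, and the largest such value was that of Hmox1 in DM against NC, 0.41 over all 12 arrays. After a second quantile normalization, log2 fold changes in DM_AngIV against DM were -0.0056 for Sod2, -0.0037 for Gclc and -0.025 for Txnrd1, and against NC -0.018 for Sod1 and -0.024 for Gpx3. With the atrial marker mean as covariate, they were 0.041 for Cat and -0.024 for Sod2 in DM_AngIV against DM and 0.074 for Sod3 in DM_AngIV against NC. Without the arrays with Myl7 signal, which leaves 1 DM heart assumed to vary like the other groups, they were 0.12 for Cat, -0.017 for Sod2 and -0.0087 for Gclc in DM_AngIV against DM, 0.11 for Gpx1, -0.059 for Hmox1, 0.0066 for Gclc and -0.031 for Txnrd1 in DM against NC, and 0.038 for Sod3 in DM_AngIV against NC. With 1 array left out, values in DM_AngIV against DM ran from -0.096 to 0.040 for Cat, -0.050 to 0.080 for Gclc, -0.029 to 0.079 for Txnrd1, -0.0074 to 0.040 for Sod2 and -0.012 to 0.31 for Hmox1. Against NC they ran from -0.045 to 0.044 for Sod1, -0.059 to 0.0999 for Gpx3 and -0.22 to 0.027 for Sod3 in DM_AngIV hearts, and from -0.0051 to 0.098 for Gpx4 in DM hearts. The causes were not tested. Of the gene values under alternatives, 986 kept direction and side of the threshold, 37 changed sign, 23 no longer passed and 9 newly passed. Osgin1 was not in the level-filtered set.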
